A study of Mus musculus with 20 samples.

Results

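The genes described here encode the hydroxylases and helpers with which collagen chains are modified and folded. They are 10 of the 32285 genes in the deposited table, taken by symbol: P4ha1, P4ha2, P4ha3, P4hb, Plod1, Plod2, Plod3, P3h1, Crtap and Serpinh1. All 10 were measured in all 20 libraries, and all 10 passed the filter of at least 1 TPM in at least 5 libraries that 12350 genes passed. TPM is a transcript's abundance corrected for its length and scaled to a fixed total per library, so levels of different genes can be compared within it.

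The libraries came from immortalized primary murine cancer-associated fibroblasts (CAFs), the matrix-producing cells of a tumour's stroma, grown in culture. In the first group cells had 0.2 mM glutamine with 25 uM EIPA, an amiloride analogue that blocks sodium-proton exchange and is used to stop macropinocytosis, the bulk uptake of fluid. The second group had 0.2 mM glutamine with DMSO, the vehicle of EIPA. The third had 4 mM glutamine with DMSO and 25 pg/mL of the cytokine IL-1a, and the fourth 4 mM glutamine with DMSO. By the treatment protocol DMSO was in every condition, EIPA included. Each group was treated for 32 h and held 5 libraries. The unit of EIPA is mM in the treatment text and uM in the titles, which are followed here. The cells are an immortalized culture, and no source used here says how many isolates it stands for or whether replicates were grown separately. The p-values therefore measure the spread between these samples, which may be technical. The design implies 3 comparisons: 0.2 mM against 4 mM glutamine in vehicle, EIPA against vehicle at 0.2 mM, and IL-1a against vehicle at 4 mM.

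Collagen chains are modified while they enter the endoplasmic reticulum (ER). Prolyl 4-hydroxylase, a tetramer of catalytic alpha subunits (P4ha1, P4ha2 or P4ha3) and the disulfide isomerase P4hb, hydroxylates prolines so that the triple helix is stable at body temperature. The lysyl hydroxylases Plod1, Plod2 and Plod3 hydroxylate lysines, which later carry sugars and cross-links, and Plod2 acts on the telopeptides at the ends of the chains. P3h1 and Crtap form a complex that 3-hydroxylates prolines of fibrillar collagen, and Serpinh1 (HSP47) is the ER chaperone that holds the folded helix until it leaves for the Golgi. The hydroxylases use oxygen, iron and 2-oxoglutarate, which cells make in part from glutamine, and several of them are known targets of the hypoxia-inducible factor HIF-1.

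In the annotation of GRCm38, P4ha1 (ENSMUSG00000019916) lies on chromosome 10 at 59323296 to 59373304, P4ha2 (ENSMUSG00000018906) on chromosome 11 at 54100095 to 54131665 and P4ha3 (ENSMUSG00000051048) on chromosome 7 at 100285520 to 100319699. P4hb (ENSMUSG00000025130) lies on chromosome 11 at 120560298 to 120573253. Plod1 (ENSMUSG00000019055) is on chromosome 4 at 147909753 to 147936767, Plod2 (ENSMUSG00000032374) on chromosome 9 at 92542223 to 92608428 and Plod3 (ENSMUSG00000004846) on chromosome 5 at 136987019 to 136996648. P3h1 (ENSMUSG00000028641) is on chromosome 4 at 119232915 to 119248975, Crtap (ENSMUSG00000032431) on chromosome 9 at 114375134 to 114390675 and Serpinh1 (ENSMUSG00000070436) on chromosome 7 at 99345376 to 99353239. Plod3 shares 529 exon bases with the antisense gene Znhit1 and 9 with Mir702, and Plod2 shares 346 with the antisense gene Gm38391. Whether reads were counted by strand is not given in the sources used here, so part of the Plod2 and Plod3 values could belong to these neighbours. Znhit1 was at 76.4 to 134 TPM over the 20 libraries.

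Genes of 1 family differed in their calls here: with EIPA P4ha2 rose, P4ha3 fell and P4ha1 was not called, and Plod1 rose while Plod2 was not called. The 250 bases before the RefSeq start of 4 of them (GRCm38.p6, read 5′ to 3′ on the gene's strand) are printed. Whether these sequences bear on the calls was not tested. Capitals mark ACGTG, the core of the HIF site, and its relative GCGTG, each searched on both strands. P4ha1 is chr10:59323046-59323295, plus strand. P4ha2 is chr11:54100674-54100923, plus strand. P4ha3 is chr7:100285270-100285519, plus strand. Plod1 is chr4:147936777-147937026, minus strand. None of the 4 windows overlaps an annotated exon, and that of P4ha2 lies inside the longer gene model of the annotation.
P4ha1: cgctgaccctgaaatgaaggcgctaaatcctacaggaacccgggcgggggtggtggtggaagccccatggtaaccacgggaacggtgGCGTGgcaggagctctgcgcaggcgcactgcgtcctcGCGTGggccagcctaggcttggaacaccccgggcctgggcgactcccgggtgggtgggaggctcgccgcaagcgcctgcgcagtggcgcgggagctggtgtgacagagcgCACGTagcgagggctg
P4ha2: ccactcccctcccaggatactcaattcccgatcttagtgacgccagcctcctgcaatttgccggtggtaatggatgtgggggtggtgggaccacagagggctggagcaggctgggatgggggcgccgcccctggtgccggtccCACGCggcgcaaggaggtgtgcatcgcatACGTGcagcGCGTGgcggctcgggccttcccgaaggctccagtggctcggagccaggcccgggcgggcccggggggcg
P4ha3: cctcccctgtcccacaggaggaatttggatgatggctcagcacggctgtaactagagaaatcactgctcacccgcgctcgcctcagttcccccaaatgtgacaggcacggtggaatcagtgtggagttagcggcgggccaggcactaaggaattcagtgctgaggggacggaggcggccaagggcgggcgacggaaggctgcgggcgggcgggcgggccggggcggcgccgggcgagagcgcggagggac
Plod1: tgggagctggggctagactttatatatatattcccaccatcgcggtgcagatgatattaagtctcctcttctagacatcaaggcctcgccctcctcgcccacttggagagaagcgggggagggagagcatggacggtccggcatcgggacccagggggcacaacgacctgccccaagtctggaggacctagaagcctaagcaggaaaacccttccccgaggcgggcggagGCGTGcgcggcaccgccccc

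P4ha1 and P4ha2 each hold ACGTG, which begins 16 bases before the start in P4ha1 and 78 bases before it in P4ha2. Each also holds GCGTG at 2 places. The P4ha3 window has neither string, and the Plod1 window has GCGTG, beginning 20 bases before the start. RefSeq promoter sequence was matched for 9 of the 10 genes, with 10 windows, since P3h1 has 2. Plod2 had no entry. ACGTG was found in 6 of the 10 windows, against 16.6% of 32817 windows of the same length over all genes, and GCGTG in 7 of 10, against 28.1%. CCAAT, the box bound by NF-Y, was in 4 of 10 windows against 33.8%, and GAANNTTC, the core of the heat shock element, in 0 of 10 against 6.69%. The GC content of the windows ran from 53.6% to 70.0%, and the median over all windows was 52.4%. A match shows the letters only.

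The 10 genes together took 3124 ± 248 TPM (mean ± SD, n = 5, as in all values of this form) in 4 mM vehicle libraries and 3066 ± 348 with IL-1a. They took 2146 ± 126 TPM at 0.2 mM in vehicle and 1692 ± 76.4 with EIPA. Serpinh1 and P4hb supplied between 71.4% and 81.5% of that sum in every library. Fewer cells of a kind and less RNA per cell cannot be told apart in bulk RNA of this sort.

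Between glutamine levels, 9 of the 10 genes were lower at 0.2 mM than at 4 mM and Plod1 did not pass the test. With EIPA, 2 genes rose (P4ha2 and Plod1), 5 fell (P4ha3, P4hb, Plod3, P3h1 and Serpinh1) and 3 did not pass (P4ha1, Plod2 and Crtap). None of the 10 was called for IL-1a. A gene was called when its adjusted p in limma, fitted on log2(TPM + 1) over all 12350 genes and adjusted by Benjamini-Hochberg, was under 0.05. Of all genes tested, 27.9% were called lower and 45.4% higher at 0.2 mM than at 4 mM glutamine. EIPA raised 27.4% and lowered 21.1% (3383 and 2603 genes), but 2902 were higher and 2970 lower under median-of-ratios scaling, where 2 members still rose and 5 fell. IL-1a raised 0.259% and lowered 0.0243%. The 5 members that fell with EIPA stand beside that 21.1%, the 2 that rose beside 27.4%, and the 9 that were lower at 0.2 mM beside 27.9%. Groups did not overlap for 8 members between glutamine levels, where 59.9% of all genes did not. For EIPA this held for 6 members and 34.6% of all genes, and for IL-1a for 0 members and 1.38%. The EIPA and glutamine comparisons share the 5 vehicle libraries at 0.2 mM.

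**Figure D1:**
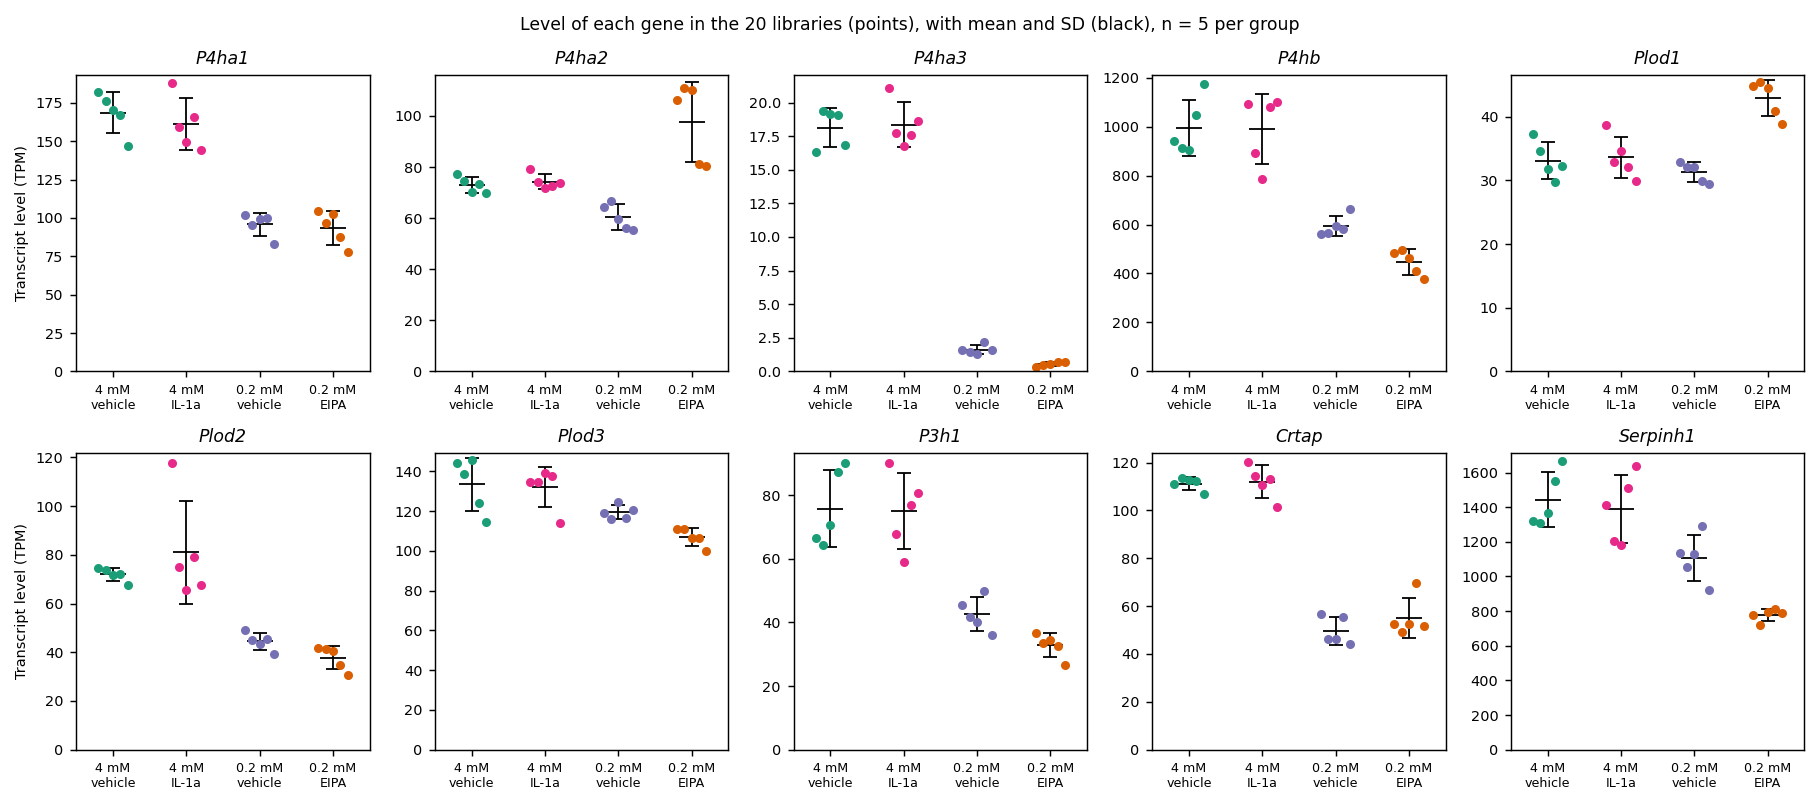
Transcript level in TPM (vertical axes, from 0) of each gene in the 20 libraries; points are libraries, black lines the mean and SD of 5 libraries per group. P4ha2 and Plod1 are highest with EIPA, where their libraries lie at 80.4 to 111 and 39.0 to 45.5 TPM, and the other 8 genes are highest at 4 mM glutamine.

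The median log2 fold change over all tested genes was 0.14 between glutamine levels, 0.02 with EIPA and 0.01 with IL-1a. The log2 fold changes of members called between glutamine levels are therefore followed by their value relative to the median gene. Medians of the gene lists further below are treated likewise. With median-of-ratios scaling, which removes that shift, 4438 genes were called higher and 4382 lower, against 5606 and 3449 of the values as deposited. The median of the 10 genes was -0.71 between glutamine levels and -0.20 for EIPA.

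P4ha1 encodes the main alpha subunit of most tissues. Its level was 182, 176, 170, 167 and 147 TPM in the 4 mM vehicle libraries and 188, 159, 150, 166 and 144 TPM with IL-1a. At 0.2 mM it was 102, 95.5, 99.2, 100.02 and 83.0 TPM in vehicle and 105, 96.6, 102, 87.5 and 77.8 TPM with EIPA. The 10 libraries at 0.2 mM were all below the 10 at 4 mM, while within each glutamine level the groups overlapped. The gene was lower at 0.2 mM by limma, with a log2 fold change of -0.81 ± 0.08 (SE), -0.94 relative to the median gene, and adjusted p = 2.3e-08. EIPA left it at -0.04 ± 0.08 with a 95% interval of -0.21 to 0.14 (limma, adjusted p = 0.75).

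P4ha2 encodes the alpha subunit known from cartilage and bone. It stood at 77.4, 74.5, 70.1, 73.6 and 69.7 TPM in 4 mM vehicle and at 79.2, 74.2, 71.8, 72.5 and 73.7 TPM with IL-1a. In 0.2 mM vehicle it stood at 64.4, 66.7, 59.7, 56.0 and 55.2 TPM, below every library at 4 mM. With EIPA it stood at 106, 111, 110, 81.2 and 80.4 TPM, above all 15 other libraries. EIPA thus raised it 1.62-fold by mean TPM, by 0.67 ± 0.08 on the log2 scale (limma, adjusted p = 1.2e-06). The difference between glutamine levels was smaller, -0.27 ± 0.08 and -0.41 relative to the median gene (limma, adjusted p = 0.0053).

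P4ha3 encodes the third alpha subunit, which most tissues express at a low level. It was at 16.3, 19.4, 19.2, 19.1 and 16.8 TPM in 4 mM vehicle and at 21.1, 17.8, 16.8, 17.6 and 18.7 TPM with IL-1a. In 0.2 mM vehicle it was at 1.58, 1.45, 1.30, 2.15 and 1.60 TPM, and with EIPA at 0.32, 0.47, 0.53, 0.69 and 0.67 TPM. Of the 10 genes it had the widest range, with a mean 34.3 times higher in the highest group than in the lowest. The 0.2 mM vehicle mean was 11.2 times below the 4 mM vehicle mean, and the EIPA mean 3.01 times below the 0.2 mM vehicle mean, with no overlap in either case. On the log2(TPM + 1) scale the changes were -2.88 ± 0.09 (-3.01 relative to the median gene, adjusted p = 9.1e-16) and -0.77 ± 0.09 (adjusted p = 1.1e-06) by limma. With a pseudocount of 0.1 TPM the EIPA change was -1.45 (limma, adjusted p = 1.3e-07). At under 1 TPM and with unknown depth, the EIPA level could rest on few reads.

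The alpha subunits therefore differed in make-up as well as in sum. P4ha1 supplied 64.8% ± 1.23 of the summed P4ha transcripts in 4 mM vehicle, 60.7% ± 1.96 at 0.2 mM in vehicle and 48.9% ± 1.93 with EIPA. P4ha2 supplied 28.2% ± 1.07, 38.3% ± 2.06 and 50.8% ± 1.99 in the same order. P4ha3 went from 7.00% ± 0.620 at 4 mM in vehicle to 1.03% ± 0.222 at 0.2 mM and 0.291% ± 0.118 with EIPA. The sum of the 3 was 260 ± 16.2 TPM in 4 mM vehicle, 158 ± 10.7 in 0.2 mM vehicle and 192 ± 25.8 with EIPA.

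**Figure D2:**
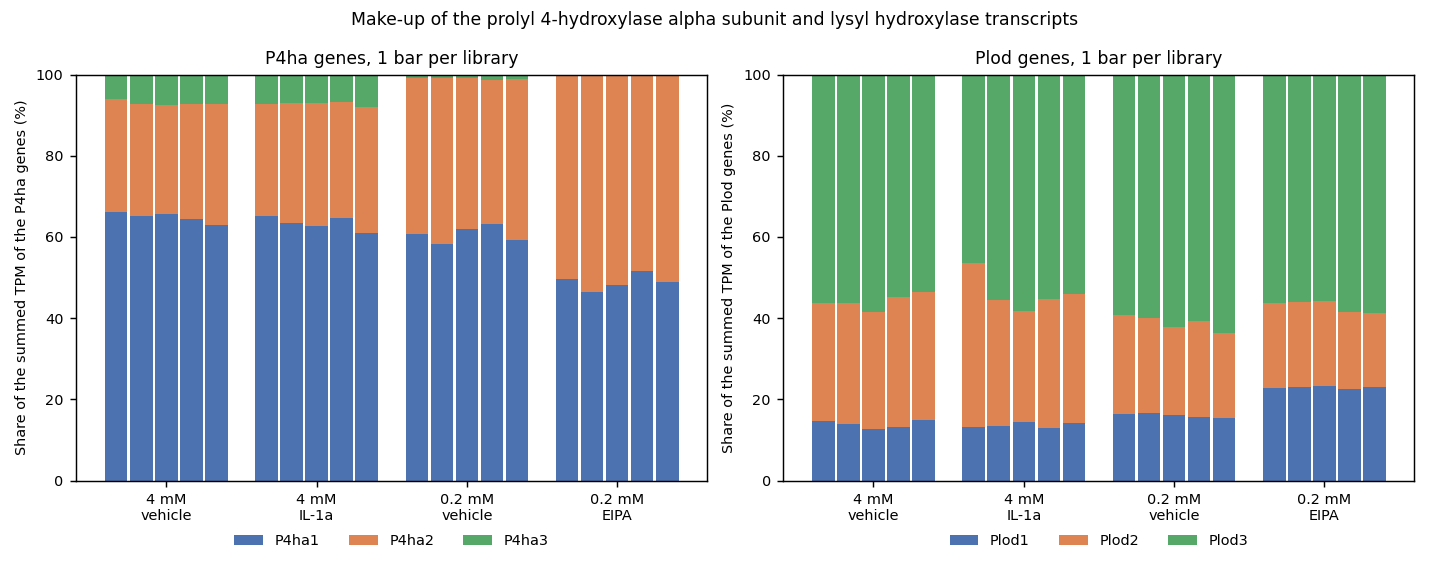
Share of the summed TPM of the P4ha genes (left) and the Plod genes (right), in percent, with 1 stacked bar for each of the 20 libraries. P4ha3 shrinks from 7.00% on average in 4 mM vehicle to 0.291% with EIPA while P4ha2 grows from 28.2% to 50.8%; Plod1 grows from 13.9% to 22.9%.

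A ratio of 2 transcripts within a library does not depend on how the library was scaled. P4ha2 over P4ha1 was 0.411 to 0.474 in 4 mM vehicle, 0.421 to 0.511 with IL-1a, 0.560 to 0.699 in 0.2 mM vehicle and 0.928 to 1.15 with EIPA. The mean log2 ratio was higher by 0.72 with EIPA than in vehicle and by 0.54 at 0.2 mM than at 4 mM. Each of these had p = 0.0079 in a two-sided exact permutation test, the smallest p that 252 assignments can give, and 0.014 adjusted over the 12 ratio comparisons. For IL-1a the difference was 0.09 (exact permutation p = 0.18, adjusted 0.27).

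P4hb, the beta subunit, is also a general disulfide isomerase of the ER. It was at 942, 913, 904, 1049 and 1173 TPM in 4 mM vehicle and at 1091, 891, 786, 1080 and 1101 TPM with IL-1a. It was at 561, 565, 595, 583 and 665 TPM in 0.2 mM vehicle and at 485, 497, 465, 411 and 376 TPM with EIPA. Neither 0.2 mM group overlapped the 4 mM groups or the other. It fell by 0.74 ± 0.10 on the log2 scale between glutamine levels (-0.88 relative to the median gene, limma, adjusted p = 6.7e-07) and by 0.41 ± 0.10 with EIPA (limma, adjusted p = 0.0014).

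P4hb over the summed alpha subunits was 3.87 ± 0.698 in 4 mM vehicle, 3.90 ± 0.541 with IL-1a, 3.79 ± 0.561 in 0.2 mM vehicle and 2.33 ± 0.0947 with EIPA. The 5 EIPA libraries, at 2.18 to 2.42, lay below all 15 others, the lowest of which was at 3.30. The EIPA difference was -0.69 in mean log2 ratio (exact permutation p = 0.0079, adjusted 0.014). Between glutamine levels it was -0.02 (exact permutation p = 0.86, adjusted 0.9) and for IL-1a 0.02 (exact permutation p = 0.9, adjusted 0.9).

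Plod1 encodes a lysyl hydroxylase of the helical part of the chains. It was at 37.4, 34.6, 31.7, 29.7 and 32.2 TPM in 4 mM vehicle and at 38.6, 32.9, 34.6, 32.1 and 30.0 TPM with IL-1a. It was at 33.0, 32.2, 32.2, 29.9 and 29.4 TPM in 0.2 mM vehicle and at 44.9, 45.5, 44.6, 41.0 and 39.0 TPM with EIPA. The EIPA libraries lay above all 15 others, and the other 3 groups overlapped each other. EIPA raised the gene 1.37-fold, by 0.44 ± 0.07 on the log2 scale (limma, adjusted p = 2.4e-05). Between glutamine levels it was -0.08 ± 0.07, with an interval of -0.22 to 0.07 (limma, adjusted p = 0.33), and -0.21 with an adjusted p of 0.0097 under median-of-ratios scaling.

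Plod2 encodes the telopeptide lysyl hydroxylase, which sets the kind of cross-link collagen forms. It was at 74.8, 73.6, 71.9, 71.97 and 67.5 TPM in 4 mM vehicle. With IL-1a it was at 118, 74.99, 65.7, 79.3 and 67.5 TPM, so that replicate 1 stood apart from the other 4. In 0.2 mM vehicle it was at 49.1, 44.8, 43.6, 45.3 and 39.3 TPM and with EIPA at 41.6, 41.4, 40.3, 34.6 and 30.8 TPM, and these groups overlapped. The gene was lower at 0.2 mM than at 4 mM by 0.69 ± 0.12 on the log2 scale, -0.82 relative to the median gene (limma, adjusted p = 2.0e-05). EIPA gave -0.23 ± 0.12 with an interval of -0.48 to 0.01 (limma, adjusted p = 0.1). That value passed with mitochondrially encoded genes left out (-0.28, adjusted p = 0.048) and when only the 10 libraries compared were fitted (-0.23, adjusted p = 0.042). It also passed when the replicate number was added to the fit as a block, as given further below.

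Plod3 encodes the lysyl hydroxylase that also attaches sugars to hydroxylysine, and it supplied 53.8% to 61.2% of the Plod transcripts on group average. Its level ranged from 115 to 145 TPM in 4 mM vehicle, from 114 to 139 with IL-1a, from 116 to 124 in 0.2 mM vehicle and from 99.8 to 111 with EIPA. The EIPA libraries lay below every other library, by little. The change was -0.16 ± 0.06 with EIPA (limma, adjusted p = 0.043) and -0.15 ± 0.06 between glutamine levels (-0.29 relative to the median gene, limma, adjusted p = 0.033). The EIPA call was lost without any 1 of 8 of the 10 libraries compared (EIPA replicates 3 to 5 and vehicle replicates 1 to 5), with adjusted p from 0.05 to 0.1. The glutamine call was lost without vehicle replicate 1, 2 or 4 at 0.2 mM or 1, 2 or 3 at 4 mM, with adjusted p from 0.051 to 0.1.

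Plod2 over Plod1 was highest at 4 mM and lowest with EIPA. It was 2.00 to 2.42 in 4 mM vehicle, 1.90 to 3.04 with IL-1a, 1.34 to 1.52 in 0.2 mM vehicle and 0.792 to 0.928 with EIPA. In mean log2 ratio the difference was -0.62 between glutamine levels and -0.70 with EIPA (exact permutation p = 0.0079 each, adjusted 0.014), and 0.12 for IL-1a (exact permutation p = 0.39, adjusted 0.52).

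**Figure D3:**
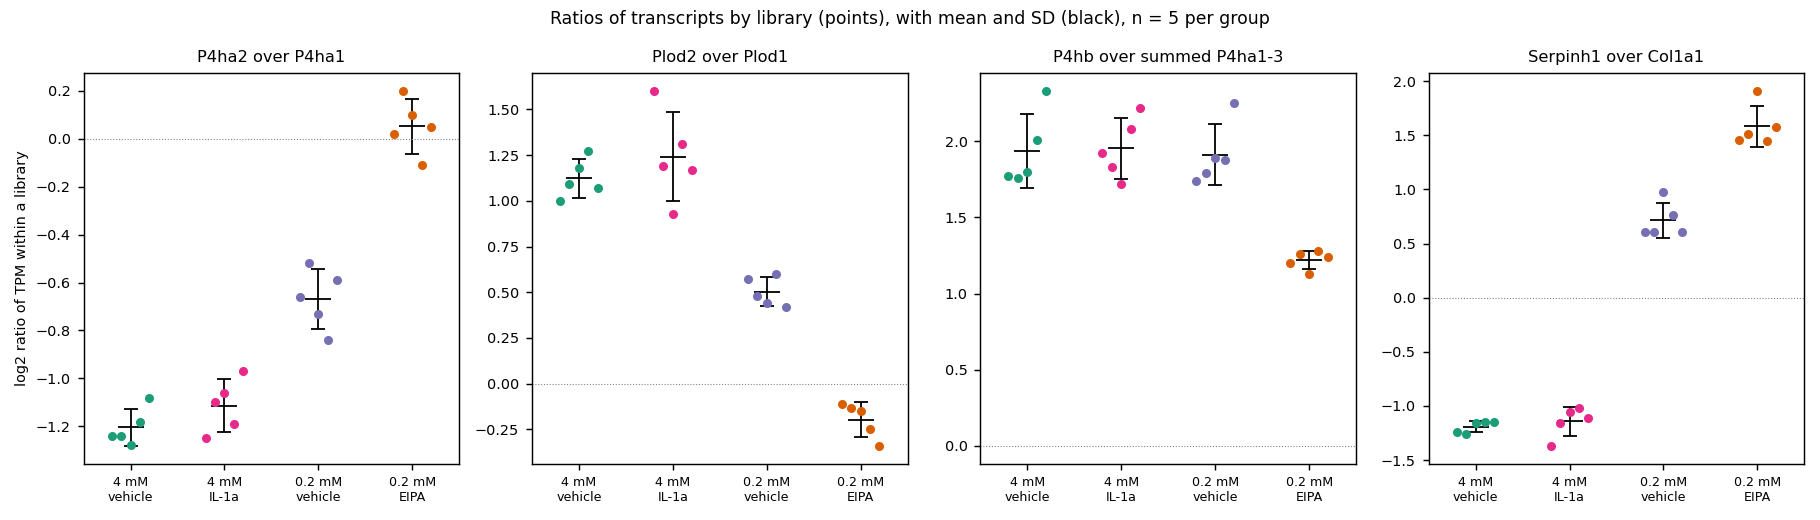
Log2 ratio of TPM within each library (vertical axes) for 4 pairs of transcripts; points are libraries, black lines the mean and SD of 5 libraries per group. The EIPA libraries lie apart from every other library in all 4 ratios, and the 4 mM vehicle and IL-1a libraries overlap in each.

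P3h1 encodes the prolyl 3-hydroxylase. Its level ranged from 64.5 to 90.1 TPM in 4 mM vehicle, from 59.1 to 90.2 with IL-1a, from 36.0 to 49.8 in 0.2 mM vehicle and from 26.7 to 36.8 with EIPA. Every 0.2 mM library was below every 4 mM library, and the EIPA and vehicle groups overlapped. It was lower at 0.2 mM by 0.81 ± 0.12 on the log2 scale, -0.95 relative to the median gene (limma, adjusted p = 2.3e-06), and fell by 0.37 ± 0.12 with EIPA (limma, adjusted p = 0.013).

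Crtap encodes the cartilage-associated protein that keeps P3h1 stable. It was at 111, 113, 113, 112 and 107 TPM in 4 mM vehicle and at 120, 114, 110, 113 and 102 TPM with IL-1a. In 0.2 mM vehicle it was at 56.7, 46.1, 46.2, 55.5 and 44.0 TPM, and with EIPA at 52.5, 49.0, 52.4, 69.6 and 51.8 TPM. Both 0.2 mM groups lay below both 4 mM groups and overlapped each other. The 0.2 mM vehicle mean was 2.24 times below that of 4 mM vehicle (-1.15 ± 0.08, -1.29 relative to the median gene, limma, adjusted p = 7.8e-11). EIPA gave 0.14 ± 0.08 with an interval of -0.03 to 0.31 (limma, adjusted p = 0.16). With EIPA, then, P3h1 was called lower while Crtap, its partner, was not called, and the difference between the partners was not tested.

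Serpinh1 was the most abundant of the 10 in every group. It was at 1323, 1307, 1367, 1549 and 1666 TPM in 4 mM vehicle and at 1413, 1203, 1181, 1511 and 1637 TPM with IL-1a. In 0.2 mM vehicle it was at 1135, 1054, 1131, 1292 and 923 TPM, below every 4 mM vehicle library. With EIPA it was at 776, 722, 795, 809 and 787 TPM, below all 15 others. EIPA lowered it 1.42-fold, by 0.50 ± 0.09 on the log2 scale (limma, adjusted p = 1.5e-04). Between glutamine levels the change was -0.38 ± 0.09, -0.52 relative to the median gene (limma, adjusted p = 8.6e-04).

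Col1a1, the alpha 1 chain of type I collagen and a main client of Serpinh1, moved more than the chaperone. Its mean was 3288 ± 270 TPM in 4 mM vehicle, 3084 ± 520 with IL-1a, 675 ± 82.8 in 0.2 mM vehicle and 262 ± 32.7 with EIPA. Serpinh1 over Col1a1 was 0.417 to 0.452 in 4 mM vehicle, 0.386 to 0.495 with IL-1a, 1.52 to 1.97 in 0.2 mM vehicle and 2.72 to 3.76 with EIPA. The mean log2 ratio was higher by 1.91 at 0.2 mM than at 4 mM and by 0.87 with EIPA than in vehicle (exact permutation p = 0.0079 each, adjusted 0.014). For IL-1a it differed by 0.05 (exact permutation p = 0.54, adjusted 0.65). The ratio describes 1 chain, and chains differed. With EIPA 14 of 21 tested chains fell, 1 rose and 6 were not called (limma), among them Col4a1 (-0.27) and Col4a2 (-0.10).

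**Figure D4:**
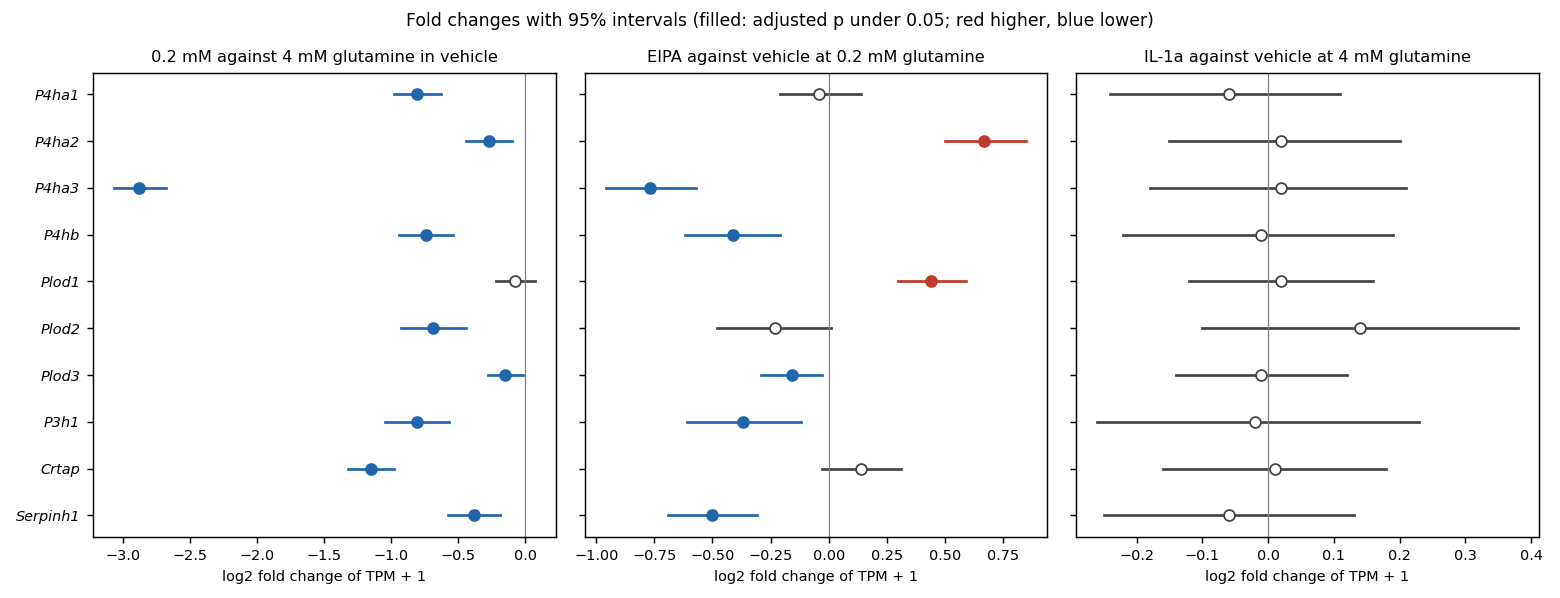
Log2 fold change of TPM + 1 (horizontal axes, each with its own range) with 95% intervals from limma for the 10 genes in the 3 comparisons; filled points have an adjusted p under 0.05. Between glutamine levels 9 points are filled and lie below 0, with EIPA 2 lie above and 5 below, and none is filled for IL-1a.

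IL-1a at 25 pg/mL gave no call among the 10 genes by limma, with an adjusted p of 1 for each and 0 of 10 at an unadjusted p under 0.05. Log2 fold changes ran from -0.06 (P4ha1 and Serpinh1) to 0.14 (Plod2), and the groups overlapped for every gene. The interval was -0.24 to 0.11 for P4ha1, -0.26 to 0.23 for P3h1 and -0.10 to 0.38 for Plod2. Over all genes 32 were called higher and 3 lower, which sets the scale of this comparison.

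Ordered by mean level, P4ha1, P4ha3, P4hb, Plod2, Plod3, P3h1 and Serpinh1 ran from the 4 mM groups through 0.2 mM vehicle down to EIPA. Crtap was highest at 4 mM and lowest in 0.2 mM vehicle. P4ha2 and Plod1 were highest with EIPA and lowest in 0.2 mM vehicle. The 4 mM groups overlapped for all 10 genes. The groups at 0.2 mM overlapped for P4ha1, Plod2, P3h1 and Crtap. For Plod1 and Plod3 the 0.2 mM vehicle libraries overlapped those of both 4 mM groups, and for Serpinh1 those of the IL-1a group.

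Across the 20 libraries, the 45 pairs of these genes had a median Pearson r of 0.77 (log2(TPM + 1)), from -0.72 (Plod1 with Serpinh1) to 0.97 (P4hb with P3h1). All 16 negative pairs joined P4ha2 or Plod1 to another gene, and these 2 correlated with each other at 0.89. The libraries share their group differences, so these values describe mostly the group pattern. After each library's group mean was removed, the median r was 0.23. P4ha1 with Plod2 then stood at 0.86 and P4ha2 with Plod1 at 0.65, while Plod3 with Serpinh1 stood at -0.65. P4ha2 and Plod1 were then no longer apart from P4ha1 (0.71 and 0.73) and Plod2 (0.63 and 0.71), pairs that were negative over the 20 libraries. With P4ha3 (-0.43 and -0.30) and Serpinh1 (-0.14 and -0.35) they stayed negative. Removing group means keeps any difference that libraries of the same replicate number share. P4ha1, for one, was lowest in replicate 5 of each group.

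**Figure D5:**
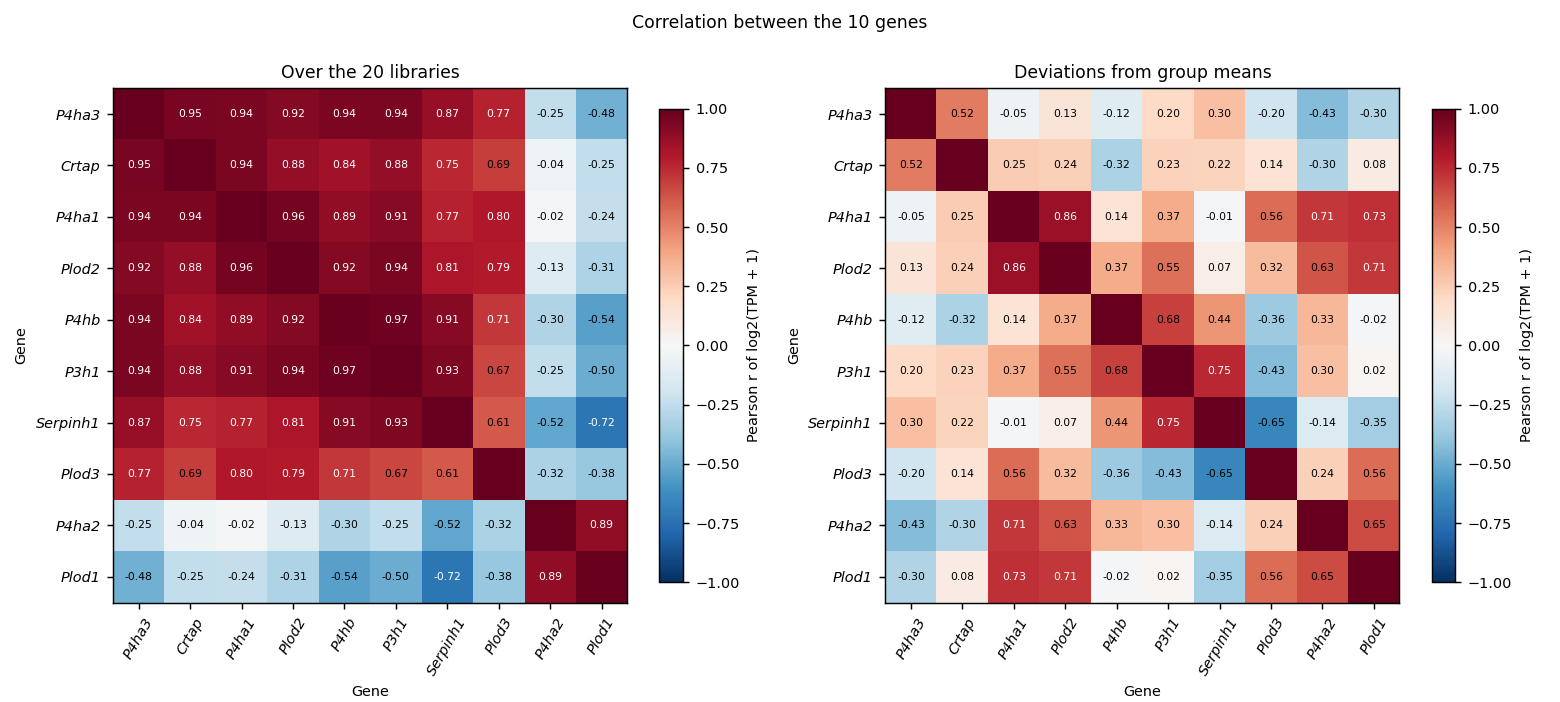
Pearson r between the 10 genes over the 20 libraries (left) and over deviations from the group means (right), on a colour scale from -1 to 1. On the left 8 genes form a block of positive values with P4ha2 and Plod1 outside it, at 0.89 with each other; on the right most values are weaker.

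Among all other tested genes, the likest pattern over the 20 libraries was measured by the same r. For P4ha3 it was Cdc42ep2 and Kif26b (each 0.996) and the collagen-binding integrin Itga11 (0.993). P4ha2 was closest to Arpc3, a subunit of the actin-branching Arp2/3 complex (0.944), and Plod1 to Sgsm1 (0.964). Serpinh1 was closest to Xbp1, a transcription factor of the unfolded protein response (0.972), P4hb to Ssr1, of the translocon-associated complex (0.983), and Plod2 to Qsox1, a sulfhydryl oxidase (0.978). P4ha1 was closest to Cryab, a small heat shock protein (0.983), P3h1 to Morf4l2 (0.985), Crtap to the tetraspanin Cd151 (0.992) and Plod3 to Ankrd13a (0.923). With group means removed, r with P4ha3 was 0.21 for Cdc42ep2, 0.73 for Kif26b and 0.77 for Itga11. For the closest gene of each other member it was then 0.78 to 0.87. These are the top of 12350 genes and carry no test.

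Other genes of the same route were counted by list. Over all tested genes the median was 0.02 for EIPA, with 27.4% called higher and 21.1% lower. Between glutamine levels it was 0.14, with 45.4% higher and 27.9% lower. Of 21 tested collagen chains, 16 were lower and 0 higher at 0.2 mM than at 4 mM by limma. Their median was -1.10, and -1.24 relative to the median gene. With EIPA 14 fell and 1 rose (median -0.67). Col8a1, a chain of a network-forming collagen, was at 4.88 ± 1.14 TPM against 32.7 ± 2.73, and Col6a2, of the microfibrillar collagen VI, at 22.4 ± 2.90 against 120 ± 23.9 TPM. With EIPA, Col4a6 of basement membranes was at 10.5 ± 2.11 against 30.7 ± 4.10 TPM, and Col3a1, a fibrillar chain, at 40.0 ± 4.30 against 215 ± 37.7 TPM.

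Of 13 other tested genes listed with collagen modification and folding in the ER, 10 were lower and 1 higher at 0.2 mM. Their median was -0.77, and -0.91 relative to the median gene. With EIPA 4 fell and 1 rose (median 0.00). The list also holds genes whose products do not themselves modify or fold collagen. Among them are Creb3l1, lower in both comparisons, and Tmem38b, the 1 gene higher at 0.2 mM. P3h4, a partner of lysyl hydroxylase 1 in the ER, was at 147 ± 5.41 TPM in 4 mM vehicle, 53.8 ± 6.34 in 0.2 mM vehicle and 31.3 ± 6.23 with EIPA. Both steps were called (limma, -1.44 ± 0.09 with adjusted p = 2.3e-11, then -0.78 ± 0.09 with adjusted p = 1.1e-06), while Plod1 itself rose with EIPA. Fkbp14, a prolyl isomerase, went from 25.9 ± 2.36 to 7.76 ± 0.748 TPM between glutamine levels. Creb3l1, a transcription factor that drives collagen genes, went from 44.4 ± 4.76 TPM in vehicle to 17.5 ± 1.21 with EIPA.

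Of 14 procollagen export genes, 6 were lower and 4 higher at 0.2 mM (2 higher and 8 lower under median-of-ratios scaling), and 4 fell and 4 rose with EIPA. The medians were -0.08 (-0.22 relative to the median gene) and -0.02, and the EIPA shares were near those of all genes. Sec24d, a COPII coat protein needed for large cargo, was at 124 ± 7.59, 34.4 ± 2.17 and 22.5 ± 2.54 TPM in 4 mM vehicle, 0.2 mM vehicle and EIPA. Sec23a, its partner, went from 71.9 ± 2.34 to 39.8 ± 2.89 TPM between glutamine levels, and Trappc2 from 17.1 ± 0.646 to 12.3 ± 1.45 TPM with EIPA.

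Of 12 tested genes for propeptide removal and cross-linking, 7 were lower and 1 higher at 0.2 mM. Their median was -0.53, and -0.67 relative to the median gene. With EIPA 7 fell and 1 rose (median -0.46). The propeptidase Adamts2 was at 6.60 ± 0.445 TPM against 29.1 ± 3.66 at 4 mM, whereas the lysyl oxidase Loxl4 was higher, at 14.6 ± 1.53 against 3.30 ± 0.977 TPM. With EIPA the proteinase Tll1 went from 18.4 ± 1.21 to 3.84 ± 0.748 TPM and the lysyl oxidase Loxl2 from 124 ± 13.6 to 21.3 ± 3.70 TPM.

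Of 16 general ER chaperones and isomerases, 8 were lower and 3 higher at 0.2 mM, and 5 fell and 2 rose with EIPA. The medians were -0.18 (-0.32 relative to the median gene) and -0.08. Pdia4 went from 235 ± 15.0 to 119 ± 8.72 TPM between glutamine levels, while Ero1l, the oxidase that recharges disulfide isomerases, rose from 42.5 ± 3.79 to 117 ± 10.9 TPM. With EIPA the chaperone Hspa5 was at 668 ± 70.8 against 998 ± 140 TPM and Pdia5 at 24.6 ± 3.72 against 35.9 ± 0.902 TPM.

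P4ha1, P4ha2, Plod1 and Plod2 are known targets of HIF-1. Of 19 tested hypoxia response genes, 12 rose and 0 fell with EIPA (limma, median 0.48), whereas 6 were higher and 9 lower at 0.2 mM than at 4 mM (median -0.09, relative to the median gene -0.22). The glucose transporter Slc2a1 went from 19.3 ± 2.81 to 39.5 ± 2.84 TPM with EIPA, and Ddit4, an inhibitor of mTORC1, from 11.2 ± 3.38 to 60.1 ± 7.99 TPM. In 4 mM vehicle Slc2a1 was at 44.7 ± 4.98 and Ddit4 at 23.4 ± 4.57 TPM, and both were among the genes called lower at 0.2 mM. Between glutamine levels Ndrg1 was higher at 0.2 mM, at 195 ± 6.74 against 46.8 ± 9.95 TPM. Of the 4 hydroxylases named as targets, P4ha2 and Plod1 rose with EIPA and P4ha1 and Plod2 were not called. The part of HIF-1 in these calls was not tested.

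Of 21 other tested 2-oxoglutarate dependent dioxygenases, 12 were higher and 2 lower at 0.2 mM (10 and 5 under median-of-ratios scaling). With EIPA 4 rose and 3 fell (3 and 4 under quantile normalisation). The medians were 0.29 (0.15 relative to the median gene) and -0.03. Some genes are in more than 1 list: Egln1, Egln3 and Kdm3a are also among the hypoxia genes, and Ero1l is in the hypoxia and chaperone lists. Kdm3a and Egln3 were thus counted in both lists as rising with EIPA. The histone demethylase Kdm3a was at 22.6 ± 3.43, 39.5 ± 1.41 and 53.8 ± 6.50 TPM in 4 mM vehicle, 0.2 mM vehicle and EIPA. Egln3, a prolyl hydroxylase of HIF, was lower at 0.2 mM and higher with EIPA, at 7.98 ± 0.789, 3.67 ± 1.09 and 6.46 ± 0.930 TPM. Of 13 tested genes for proline synthesis and cofactor supply, 7 were higher and 5 lower at 0.2 mM (5 and 5 under median-of-ratios scaling). With EIPA 4 rose and 5 fell. The medians were 0.18 (0.04 relative to the median gene) and -0.04. Idh1, which makes 2-oxoglutarate in the cytosol, was at 97.7 ± 15.8, 17.7 ± 1.16 and 60.2 ± 11.7 TPM in the same order. The transferrin receptor Tfrc was at 120 ± 13.9 TPM at 4 mM and 30.3 ± 4.07 at 0.2 mM, and Pycr1, the last enzyme of proline synthesis, was at 74.8 ± 3.21 in 0.2 mM vehicle and 39.8 ± 9.38 with EIPA. None of the 8 lists had a member called for IL-1a by limma, and 0 to 2 members per list had an unadjusted p under 0.05.

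The labelled cell type was checked by its markers. Of 13 fibroblast markers, 11 passed the filter, among them Col1a1 (mean 1827 TPM) and Vim (2415 TPM). Lum and Fap were near 0, Fap with a mean of 0.0505 TPM, and each was listed at 0 in 9 libraries. Ptprc, Epcam, Pecam1 and Sox10, which define leukocytes, epithelium, endothelium and Schwann cells, were at or near 0 (0 to 0.103 TPM). Other markers of these lists were expressed, with means of 176 TPM for Krt19, 10.3 for Krt18, 31.4 for Mbp, 4.95 for Kdr and 3.64 for Cd68. The summed leukocyte list, of which 2 of 8 genes passed the filter, ran from 7.70 to 9.41 TPM with EIPA and from 1.96 to 2.65 in 0.2 mM vehicle, and its part in the results was not tested. All 6 mesothelial markers passed the filter, among them Wt1 at 123 TPM and Msln at 89.2. Their sum ran from 639 to 1091 TPM in 4 mM vehicle, 557 to 981 with IL-1a, 334 to 473 in 0.2 mM vehicle and 186 to 294 with EIPA, in the same direction as 7 of the 10 genes, and its part in the results was not tested. The fibroblast sum moved likewise, from 10824 to 11639 TPM in 4 mM vehicle to 2333 to 2663 with EIPA. It includes Col1a1, Col1a2 and Col3a1, at means of 3288, 2018 and 829 TPM in 4 mM vehicle. With EIPA these collagen genes were at 262, 178 and 40.0 TPM, so the sum is not separate from the collagen result. Mitochondrially encoded mRNAs took 10.4% ± 1.17, 10.0% ± 0.514, 8.87% ± 0.276 and 5.69% ± 0.630 of the TPM in the same 4 groups, and with them left out 8, 0 and 9 of the 10 genes were called for EIPA, IL-1a and glutamine. Of the 4 mM libraries, IL-1a replicates 1 and 5 and vehicle replicate 5 stood apart, with the YAP target Ccn1 at 201, 235 and 231 TPM. The remaining 7 had 379 to 599 TPM. P4hb lay above the range of these 7 in all 3 libraries, at 1091, 1101 and 1173 TPM against 786 to 1080. Col1a1 did so too, at 3663, 3545 and 3697 TPM against 2464 to 3425. No other member lay above or below that range in all 3. Serpinh1 was at 1413, 1637 and 1666 TPM against 1181 to 1549. Without the 3 libraries 0 of the 10 genes were called for IL-1a and 9 between glutamine levels. Between 11749 and 12045 genes reached 1 TPM per library, and read depth is unknown.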

How the data were processed

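RNA from 20 libraries of cultured cells was extracted with a PureLink kit, enriched for polyadenylated RNA and read from both ends over 75 bases, per the labels' protocols. The deposited values are TPM from the authors, with 2 decimals. RSEM and mm10 are named per the submitters' processing notes. For the aligner, annotation release, strand setting and versions, nothing is given in the sources used here. TPM keep no depth, so no counting interval could be given.

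A pseudocount of 1 was added before taking log2, and limma 3.58.1 (R 4.3.3) was fitted: 1 model of 4 groups over all 20 libraries with an intensity trend, for genes of at least 1 TPM in at least 5 libraries (12350 genes), Benjamini-Hochberg adjusted over all of them. The fit was tested on simulated data. The 4 ratios were compared by exact permutation. Dixon's criterion marked single libraries. The members and lists were chosen with earlier results of these data known, and their counts support nothing independently. Named beyond the 10 genes were, per list and comparison, at most the 2 called genes of largest change whose higher group averaged at least 5 TPM, and the 3 genes of highest r per member, of which some are printed. Ero1a and Ero1b stand in the table as Ero1l and Ero1lb. Gene positions are from GENCODE M21 and promoters from RefSeq, both GRCm38.

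Alternatives were a pseudocount of 0.1, no filter, a mean of at least 5 TPM, median-of-ratios scaling, quantile normalisation, mitochondrial genes left out, a replicate block, no trend, only the libraries compared, and leaving out single libraries or the 3 that stood apart.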

Additional observations from a re-analysis of the deposited data

Results flagged for a closer look

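In 3 of the 40 groups of 5 libraries formed by the 10 genes, 1 library stood apart by Dixon's criterion, and chance alone marks about 1 in 20 such groups. Plod2 was at 118 TPM in IL-1a replicate 1, with the next library of the group at 79.3 TPM. Plod3 was at 114 TPM in IL-1a replicate 5, where the nearest library was at 135 TPM. Both are among the 3 libraries of the 4 mM groups with low Ccn1. Crtap was at 69.6 TPM in EIPA replicate 4, with the next library at 52.5 TPM.

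Of the 16 groups formed by the 4 ratios, 2 held such a library. P4hb over the summed alpha subunits was 4.76 in 0.2 mM vehicle replicate 5, with the next at 3.71, and in that library P4hb was at its group's highest (665 TPM) and P4ha1 at its lowest (83.0 TPM). Serpinh1 over Col1a1 was 3.76 in EIPA replicate 3, with the next at 2.99, and Col1a1 was at 211 TPM there, the lowest of its group.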

How the results depend on the processing

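No called gene or ratio among the results changed sign under the alternatives run. Among values that were not called, P4ha1 for EIPA went from -0.04 to 0.03 without EIPA replicate 5, and P4hb over the alpha subunits between glutamine levels ran from -0.11 to 0.07 when single libraries were left out. Several IL-1a values near 0 also changed sign, and none of them was called. Of the values that answer a comparison, 262 alternatives kept the call or count, 1 count moved and 7 lost their call. The count that moved was that of all genes called for IL-1a, 35 as reported and 19 when only the 10 libraries compared were fitted. The number of the 10 genes called ranged from 6 to 7 for EIPA, stayed at 0 for IL-1a and ranged from 8 to 9 for glutamine when single libraries were left out, and was 10 for glutamine under median-of-ratios scaling.

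After each gene's group mean was removed, the deviations of same-numbered libraries correlated at 0.062 to 0.322 for EIPA and vehicle. The range was -0.281 to 0.601 for IL-1a and vehicle and 0.049 to 0.167 between glutamine levels. In no comparison did every pair exceed 0.1, so the numbers were not taken as pairs. In these 3 comparisons 4, 2 and 4 of the 5 libraries correlated best with their own number. The main fit has no term for the replicate number, and what libraries of 1 number share was not tested. With the replicate block, 8, 0 and 9 of the 10 genes and 6305, 39 and 9230 of all genes were called for EIPA, IL-1a and glutamine, with Plod2 gained for EIPA (-0.23, limma adjusted p = 0.034). A sign-flip test of 5 pairs cannot give a p below 0.0625, so under the replicate block the exact permutation tests of the ratios could not pass: differences of 0.72 and 0.54 (P4ha2 over P4ha1, EIPA and glutamine), -0.70 and -0.62 (Plod2 over Plod1), -0.69 (P4hb over the alpha subunits, EIPA) and 0.87 and 1.91 (Serpinh1 over Col1a1) had an adjusted p of 0.11 each.

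For single genes, 569 alternatives kept the call, 16 lost it (all Plod3, whose EIPA call was also lost without a filter at limma adjusted p = 0.065 and without the trend at 0.057) and 5 gained it (Plod2 for EIPA and Plod1 for glutamine). The cause of these shifts was not tested. Depth is unknown, which limits what the levels of P4ha3 under 1 TPM can show.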
